A study of Mus musculus with 6 samples.

Results

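The genes described here are 10 receptors, ligands and inhibitors of EGF receptor and HGF-MET signalling, taken by symbol from the 27179 genes counted in each library: the receptors Egfr, Erbb2, Erbb3 and Met, the ligands Tgfa, Hbegf, Areg and Hgf, and the inhibitors Lrig1 and Errfi1. All 10 had a row in the count files. They were measured by RNA-seq of ribosomal RNA-depleted total RNA from 3 Mettl3-deficient livers and 3 wild-type livers of C57BL/6 mice. Mettl3 encodes the catalytic subunit of the enzyme that methylates adenosines in messenger RNA (m6A). The sources used here do not give age, sex, the hour of collection or how Mettl3 was made deficient, in which cells and whether wholly, which limits what the deficient group stands for. Strain and tissue are the only features labelled as common to all 6. Because the labels do not say how the livers relate to separate animals, a p-value here speaks only of spread among these libraries.

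EGF family ligands such as TGF-alpha, HB-EGF and amphiregulin are made as membrane precursors, cut off by metalloproteases, and bind the EGF receptor, which pairs with itself or with ERBB2 or ERBB3. HGF is secreted as an inactive precursor by non-parenchymal cells, mainly stellate cells in the liver, is cleaved by serine proteases, and binds the receptor MET on hepatocytes. Both receptors drive the RAS-ERK and PI3K-AKT cascades and are best known in this organ for hepatocyte proliferation after partial hepatectomy. LRIG1 and ERRFI1 (also called MIG6) restrain EGF receptor family members.

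Egfr was 5.49-fold lower in Mettl3-deficient livers (edgeR adjusted p = 0.00205), the largest fall in the 9 tested genes of the set, and its call alone was kept in all 16 alternative analyses. Met was 1.41-fold lower, a call lost in 8 of the 16. The ligand gene Hbegf was 6.02-fold higher at a low level, a call lost in 6 of the 16, and Areg reached 1245 counts in 1 Mettl3-deficient library and 10 in another, against at most 6 in wild-type libraries. Erbb2, Erbb3, Lrig1, Hgf, Tgfa and Errfi1 did not pass the test. Per kb of exon, Egfr was below Erbb3 and Met in each Mettl3-deficient liver and the most abundant of the 4 receptors in each wild-type liver.

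The Mettl3-deficient libraries held 34576824 to 36025772 counts and the wild-type libraries 31960205 to 34297553, and no libraries of a group agreed within counting noise (chi-square per degree of freedom at least 16.5). Mettl3 itself had 5.96, 6.60 and 4.94 CPM (counts scaled per 1e+06 with TMM factors) in the Mettl3-deficient livers, against 13.4, 14.3 and 12.1 CPM in the wild-type livers. In 14380 tested genes, edgeR called 23.8% at an adjusted p under 0.05, 13.3% higher and 10.5% lower in Mettl3-deficient livers. Albumin transcripts took 4.02% to 5.97% of the counts in Mettl3-deficient libraries and 9.57% to 11.9% in wild-type libraries. Scaling by library size alone, in place of TMM factors, gave a median of 0.49 over all log2 fold changes, against 0.01 with TMM, so all directions below are relative to TMM scaling, with exceptions named. Wild type replicate 1 stood apart from the other wild-type libraries on the second principal component, which held 20.4% of the variance. It also carried Y-linked transcripts, as did Mettl3-deficient replicates 1 and 2, with 6508, 4747 and 5031 counts over 4 genes, while the other libraries had 0.

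The stretches of 250 bases upstream of annotated starts of Areg, Errfi1 and Egfr are shown to set the start region of the receptor gene with the largest fall beside those of a ligand and an inhibitor gene whose levels varied widely between libraries. Erbb3 and Hbegf had no entry among the windows. Sequences are from RefSeq on GRCm38.p6, 5′ to 3′ on the sense strand, and capitals mark matches, on either strand, to TGACGTCA (the cyclic AMP response element), TGANTCA (the AP-1 site), TATAAA (the TATA box) or GGGCGG (the GC box). The windows are chr5:91139349-91139598 for Areg, chr4:150854820-150855069 for the downstream of 2 annotated starts of Errfi1, and chr11:16751953-16752202 for Egfr, all on the plus strand.
Areg: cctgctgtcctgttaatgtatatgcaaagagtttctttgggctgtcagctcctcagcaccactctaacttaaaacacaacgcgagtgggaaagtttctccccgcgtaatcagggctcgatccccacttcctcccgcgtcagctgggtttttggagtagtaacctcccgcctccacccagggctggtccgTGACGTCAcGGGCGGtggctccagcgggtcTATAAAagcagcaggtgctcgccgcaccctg
Errfi1: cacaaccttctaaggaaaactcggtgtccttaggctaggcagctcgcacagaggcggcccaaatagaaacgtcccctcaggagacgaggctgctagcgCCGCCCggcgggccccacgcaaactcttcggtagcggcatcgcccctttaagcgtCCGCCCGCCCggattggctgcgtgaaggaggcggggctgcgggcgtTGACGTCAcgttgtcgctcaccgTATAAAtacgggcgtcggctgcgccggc
Egfr: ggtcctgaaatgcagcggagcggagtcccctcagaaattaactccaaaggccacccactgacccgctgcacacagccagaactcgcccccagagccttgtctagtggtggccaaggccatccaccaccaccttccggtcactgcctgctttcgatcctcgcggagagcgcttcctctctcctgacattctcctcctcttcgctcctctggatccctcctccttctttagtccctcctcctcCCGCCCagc
The Areg window and this Errfi1 window both held TGACGTCA, with its first base 61 and 51 bases before the start, and TATAAA, with its first base 31 and 28 bases before the start. Of 32851 mouse windows of the same length, 1.55% held TGACGTCA and 12.4% held TATAAA. No window of the other matched genes of the set held either motif. The window of Met, not printed here, was the only one among the matched genes with TGANTCA, its first base 54 bases before the start. The window before the upstream Errfi1 start, chr4:150853546-150853795, where the gene's annotated span begins, had no match to any of the 4 motifs (6.75% of windows hold TGANTCA). The Egfr window held 1 GC box (32.7% of windows hold at least 1) and no match to the other 3 motifs. These matches are letters in a window and say nothing of binding.

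Egfr (Entrez 13649, chromosome 11, 16752203 to 16913907, GRCm38) encodes the receptor for EGF, TGF-alpha, HB-EGF and amphiregulin. It had 65.5, 39.9 and 68.3 CPM in Mettl3-deficient livers, against 259, 353 and 341 CPM in wild-type livers. The groups were far apart, and the highest Mettl3-deficient library lay well below the lowest wild-type library. Its log2 fold change was -2.46 ± 0.27 (SE; edgeR adjusted p = 0.00205). It was called in each of 16 alternatives, with log2 fold changes between -2.59 and -1.99. In bulk tissue, fewer cells of a type and less RNA per cell cannot be told apart.

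**Figure D1:**
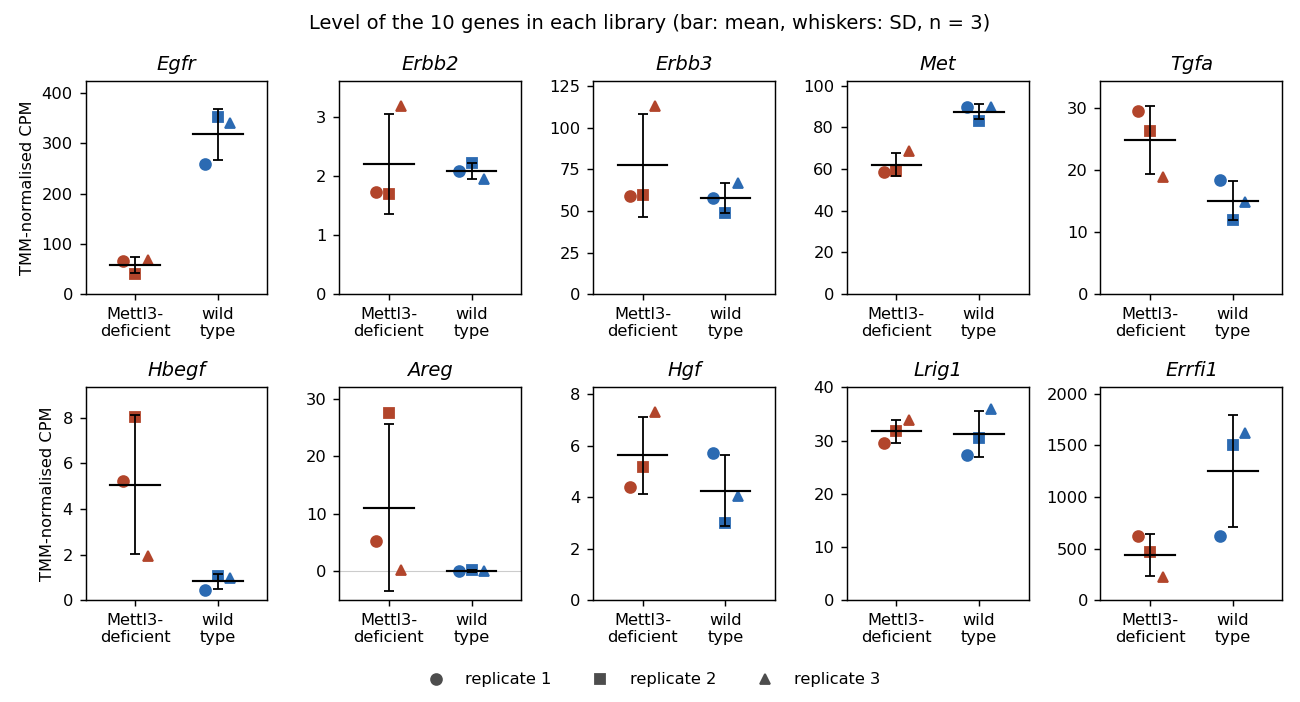
TMM-normalised CPM (vertical axis, linear, 1 scale per gene) of the 10 genes in the 3 Mettl3-deficient libraries (left of each panel) and the 3 wild-type libraries (right), with points for libraries, a bar for the mean and whiskers for the SD. Egfr and Met are lower in every Mettl3-deficient library than in any wild-type library, Hbegf and Tgfa are higher, and Areg is high in Mettl3-deficient replicate 2.

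Met (Entrez 17295, chromosome 6, 17463349 to 17573980) encodes the receptor for HGF. It had 58.4, 59.2 and 68.5 CPM in Mettl3-deficient livers, against 89.6, 83.2 and 89.5 CPM in wild-type livers. The groups did not overlap and each was tight. Its log2 fold change was -0.50 ± 0.14 (SE; edgeR adjusted p = 0.0389). The call was lost without Mettl3-deficient replicate 1 or 2 or wild type replicate 2 or 3, with an edgeR adjusted p of 0.154, 0.0948, 0.0984 and 0.122, although the log2 fold change stayed between -0.57 and -0.45. With library size alone the log2 fold change of Met was -0.02, so its fall is relative to the other genes.

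Erbb3 encodes a receptor with little kinase activity of its own that signals through its partners, and Erbb2 one that binds no known ligand. Erbb3 (Entrez 13867, chromosome 10, 128567523 to 128589635) had 59.2, 59.6 and 113 CPM in Mettl3-deficient livers, against 57.6, 48.9 and 66.8 CPM in wild-type livers. Mettl3-deficient replicate 3 alone was high, and the other libraries of both groups overlapped. Its log2 fold change was 0.42 ± 0.27 (SE; edgeR adjusted p = 0.289), and 0.04 without Mettl3-deficient replicate 3. Erbb2 (Entrez 13866, chromosome 11, 98412484 to 98437716) was low, with 1.74, 1.70 and 3.19 CPM in Mettl3-deficient livers and 2.10, 2.23 and 1.96 CPM in wild-type livers. Here too Mettl3-deficient replicate 3 was the highest of the 6 libraries, and the log2 fold change was 0.08 ± 0.35 (SE; edgeR adjusted p = 0.888). Library size alone gave Erbb3 a call as higher (log2 fold change 0.88, edgeR adjusted p = 0.0292).

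Divided by exon length, the receptor levels in Mettl3-deficient livers were 12.8 ± 5.14 CPM per kb for Erbb3, 8.08 ± 0.730 for Met, 5.11 ± 1.38 for Egfr and 0.424 ± 0.163 for Erbb2 (SD, n = 3), with no overlap between neighbours in that order. In wild-type livers the levels per kb were 28.1 ± 4.52 for Egfr, 11.4 ± 0.480 for Met, 9.60 ± 1.49 for Erbb3 and 0.402 ± 0.0258 for Erbb2 (SD, n = 3), and the ranges of Met and Erbb3 overlapped. The ratio of Egfr to Met within a library does not depend on scaling between libraries. On the per-length scale it was 0.760, 0.457 and 0.676 in Mettl3-deficient livers, against 1.96, 2.88 and 2.58 in wild-type livers. The ratio of Egfr to Erbb3 was 0.588, 0.356 and 0.321 in Mettl3-deficient livers, against 2.39, 3.84 and 2.71 in wild-type livers. In both ratios Egfr was the less abundant transcript in all 3 Mettl3-deficient libraries and the more abundant in all 3 wild-type libraries.

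Hbegf (Entrez 15200, chromosome 18, 36504927 to 36515805) encodes heparin-binding EGF-like growth factor. It had 5.21, 8.04 and 1.95 CPM in Mettl3-deficient livers, against 0.462, 1.06 and 0.998 CPM in wild-type livers. The groups did not overlap, but the lowest Mettl3-deficient library, replicate 3, was less than 1 CPM above the highest wild-type library. Its log2 fold change was 2.59 ± 0.57 (SE; edgeR adjusted p = 0.0178). Leaving out Mettl3-deficient replicate 1 or 2 or wild type replicate 2 or 3 lost the call, with an edgeR adjusted p of 0.0556, 0.0558, 0.0537 and 0.0529.

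Areg (Entrez 11839, chromosome 5, 91139599 to 91148432), the amphiregulin gene, had 213, 1245 and 10 counts in Mettl3-deficient libraries, against 0, 6 and 0 counts in wild-type libraries. The Mettl3-deficient libraries differed from each other by far more than the groups' edges did. Before TMM scaling, 2 libraries reached the filter's minimum of 0.290 CPM and the next lay just under it at 0.284 CPM, so Areg was not among the tested genes. Without the filter its log2 fold change was 7.21 ± 2.39 (SE; edgeR adjusted p = 0.127), in a fit that called 16.5% of 19341 genes. Without Mettl3-deficient replicate 3 or any 1 wild-type library it passed the filter, but only through the Mettl3-deficient libraries where it was high, so those fits are given as values and not counted as calls here. Their edgeR adjusted p was 0.0124 without Mettl3-deficient replicate 3, and 0.0683, 0.197 and 0.173 without wild type replicates 1, 2 and 3.

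Tgfa (Entrez 21802, chromosome 6, 86195038 to 86275744), which encodes TGF-alpha, had 29.4, 26.2 and 18.8 CPM in Mettl3-deficient livers, against 18.3, 11.99 and 14.9 CPM in wild-type livers. Every Mettl3-deficient library was above every wild-type library, the closest pair by less than 1 CPM. Its log2 fold change of 0.72 ± 0.23 (SE; edgeR adjusted p = 0.0530) was not called, and it was called in 7 of 16 alternatives. Hgf (Entrez 15234, chromosome 5, 16553495 to 16619439) had 4.39, 5.18 and 7.30 CPM in Mettl3-deficient livers and 5.72, 3.01 and 4.03 CPM in wild-type livers. The groups overlapped, and the log2 fold change was 0.40 ± 0.32 (SE; edgeR adjusted p = 0.386).

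Ratios of ligand to receptor transcripts within a library are free of scaling between libraries. The per-length ratio of Tgfa to Egfr was 0.783, 1.15 and 0.480 in Mettl3-deficient livers, against 0.123, 0.0592 and 0.0760 in wild-type livers. The ratio of Hbegf to Egfr was 0.187, 0.471 and 0.0669 in Mettl3-deficient livers, against 0.00418, 0.00704 and 0.00685 in wild-type livers. The groups did not overlap in either ratio. That follows from the levels above, where Egfr was lower and both ligand genes were higher without overlap. The ratio of Hgf to Met was 0.0804, 0.0935 and 0.114 in Mettl3-deficient livers and 0.0682, 0.0386 and 0.0481 in wild-type livers, again without overlap, while Hgf alone was not called.

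Errfi1 (Entrez 74155, chromosome 4, 150853796 to 150868889) encodes a cytoplasmic inhibitor of the EGF receptor kinase and is itself induced by EGF receptor signalling. It was the most abundant of the 10 genes, per length as well, with 627, 467 and 221 CPM in Mettl3-deficient livers, against 625, 1508 and 1622 CPM in wild-type livers. Wild type replicate 1 lay at the level of Mettl3-deficient replicate 1 and apart from the other wild-type livers. Its log2 fold change of -1.51 ± 0.48 (SE; edgeR adjusted p = 0.0548) was not called. Errfi1 was called in 2 of 16 alternatives. In DESeq2 on all 6 libraries the log2 fold change was -1.53 (DESeq2 adjusted p = 0.00346). Without wild type replicate 1 it was -1.84, with an edgeR adjusted p of 0.0245. Lrig1 (Entrez 16206, chromosome 6, 94604529 to 94700298), a membrane protein that promotes degradation of EGF receptor family members, had 29.5, 31.9 and 33.9 CPM in Mettl3-deficient livers and 27.3, 30.5 and 35.9 CPM in wild-type livers. The groups overlapped throughout, with a log2 fold change of 0.02 ± 0.16 (SE; edgeR adjusted p = 0.921). With library size alone Lrig1 was called as higher, at 0.50 (edgeR adjusted p = 0.0413).

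In all, 3 of the 9 tested genes were called, 1 higher and 2 lower, against 23.8% of all tested genes, 13.3% higher and 10.5% lower. Their median log2 fold change was 0.08, against 0.01 for all tested genes. The CPM ranges of the groups did not overlap, with Mettl3-deficient higher, for 2 of the 9 (Tgfa and Hbegf; 23.9% of all tested genes) and, with it lower, for 2 (Egfr and Met; 21.9%), 45.7% of all genes in either direction. Counts this near the background are no result about the set. Egfr alone was called without Mettl3-deficient replicate 1 or 2 or wild type replicate 2 or 3, while 4 of the 9 were called without Mettl3-deficient replicate 3 (Egfr, Met, Tgfa and Hbegf) and 5 without wild type replicate 1 (these and Errfi1).

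**Figure D2:**
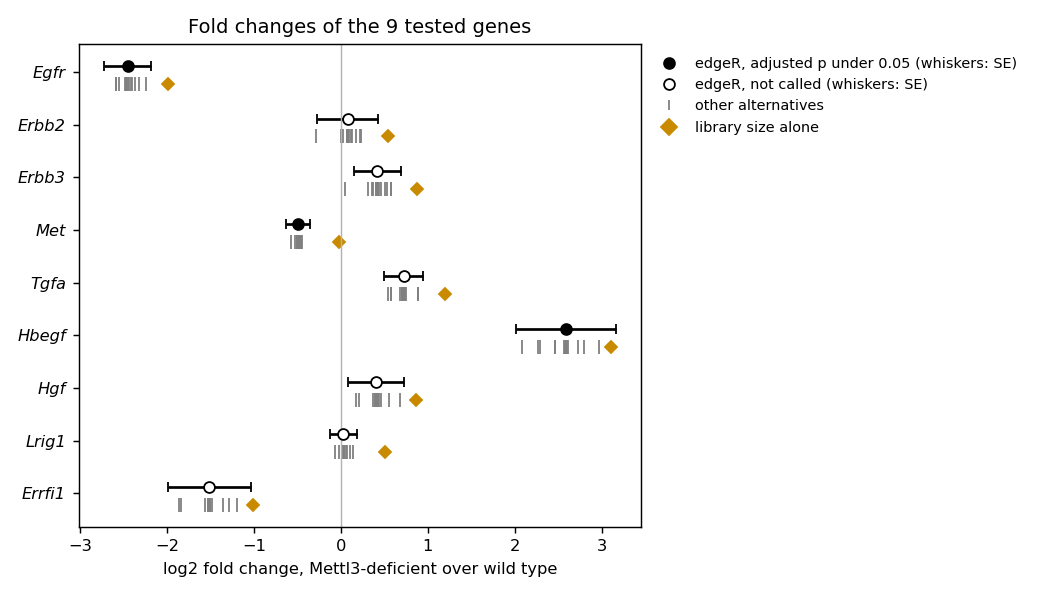
Log2 fold changes, Mettl3-deficient over wild type (horizontal axis), of the 9 tested genes: circles are the edgeR values with their SE, filled where called, ticks are 15 alternatives and diamonds scaling by library size alone. Egfr stays at -1.99 or lower in every alternative, and library size alone moves every gene upward, Met to -0.02.

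Within the libraries that carried Y-linked transcripts (2 Mettl3-deficient and 1 wild type) and within those that did not (1 Mettl3-deficient and 2 wild type), the log2 ratio of mean CPM of Egfr was -2.30 and -2.35. That of Met was -0.61 and -0.33, that of Tgfa 0.60 and 0.48, and that of Hbegf 3.84 and 0.92. For Errfi1 the ratios were -0.19 with Y-linked transcripts and -2.82 without, so its groups were far apart only in the libraries without them. Erbb3 had 0.05 and 0.97. Wild type replicate 1 is the only wild-type library in the first set, so that library and the presence of Y-linked transcripts cannot be told apart. With a covariate for Y-linked transcripts, Egfr (log2 fold change -2.32, edgeR adjusted p = 0.00305) and Met (-0.47, edgeR adjusted p = 0.0455) were called, Tgfa was called (0.54, edgeR adjusted p = 0.0489) and Hbegf was not (2.27, edgeR adjusted p = 0.0655). Errfi1 was not called with that covariate either (log2 fold change -1.51, edgeR adjusted p = 0.147).

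**Figure D3:**
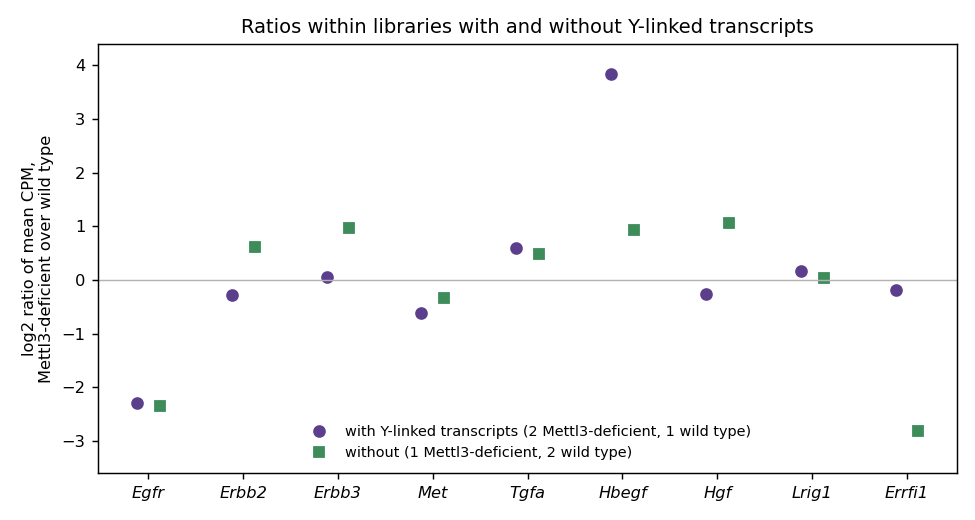
Log2 ratio of mean CPM, Mettl3-deficient over wild type (vertical axis), of 9 genes within libraries with Y-linked transcripts (circles) and without (squares); there are no error bars because each set has a group of 1 library. The 2 values of Egfr nearly coincide at -2.30 and -2.35, and those of Errfi1 lie at -0.19 and -2.82.

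Markers of the cells that make or receive these signals moved as follows. Over all tested genes 13.3% were called higher and 10.5% lower, and the lists below are short, so their counts are descriptions. Of 8 hepatocyte markers, 3 were called lower (Alb, Asgr1 and Serpina1c), with a median log2 fold change of -0.82, while Hpx had 0.34 (edgeR adjusted p = 0.403). DESeq2 called 6 of the 8 and limma-voom 3, and 6 had an unadjusted edgeR p under 0.05. The summed level of the 8 markers was 52133 to 76851 CPM in Mettl3-deficient livers and 140375 to 176183 CPM in wild-type livers, and most of it was Alb. The other 7 markers summed to 20070 to 23520 CPM in Mettl3-deficient livers and 31740 to 37140 CPM in wild-type livers. Stellate cell markers, of which 1 of 10 was called higher (Rgs5), summed to 338 to 558 CPM in Mettl3-deficient livers and 492 to 518 CPM in wild-type livers, beside the overlapping levels of Hgf. Of 6 monocyte and neutrophil markers, 5 were called higher, with sums of 17.1 to 20.1 CPM in Mettl3-deficient livers and 6.01 to 6.88 CPM in wild-type livers. Of 6 Kupffer cell markers, edgeR, DESeq2 and limma-voom each called 0, with 0 at an unadjusted edgeR p under 0.05, and they summed to 279 to 563 CPM in Mettl3-deficient livers and 79.3 to 332 CPM in wild-type livers, lowest in wild type replicate 1. Of 8 cholangiocyte markers, 1 of 7 tested was called higher (Sox9), with sums of 91.2 to 248 CPM in Mettl3-deficient livers and 106 to 126 CPM in wild-type livers, and Mettl3-deficient replicate 3, where Erbb3 was high, held the highest. Endothelial markers, of which 2 of 8 were called lower, summed to 171 to 208 CPM in Mettl3-deficient livers and 194 to 291 CPM in wild-type livers, and lymphocyte markers, with 0 of 5 tested called by edgeR, DESeq2 or limma-voom and 2 at an unadjusted edgeR p under 0.05, to 2.51 to 3.08 CPM in Mettl3-deficient livers and 1.66 to 2.25 CPM in wild-type livers. No marker had 0 counts in all libraries. The part of these cell types in the levels of Egfr, Hbegf, Areg, Erbb3 and Hgf was not tested.

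Of 7 tested genes among the other ligands and receptors of the families, 2 were called higher (Btc and Nrg1) and 2 lower (Nrg4 and Mst1), against 13.3% higher and 10.5% lower over all tested genes. These few genes are described singly, and nothing is read from their count. Betacellulin (Btc), a further ligand of the EGF receptor, had 7.67, 11.8 and 6.94 CPM in Mettl3-deficient livers, against 2.13, 1.56 and 2.29 CPM in wild-type livers (log2 fold change 2.14 ± 0.31, SE; edgeR adjusted p = 0.00492). Neuregulin 1 (Nrg1), a ligand of ERBB3 and ERBB4, had 3.70, 7.70 and 1.22 CPM in Mettl3-deficient livers, against 0.107, 0 and 0.333 CPM in wild-type livers (log2 fold change 4.83 ± 1.01, SE; edgeR adjusted p = 0.0159). Its wild-type counts were 3, 0 and 9, all under the filter's minimum of 10, so Nrg1 was tested only through the Mettl3-deficient libraries, and its call is no support for a direction of the list. Neuregulin 4 (Nrg4), a ligand of ERBB4, had 2.76, 2.21 and 2.10 CPM in Mettl3-deficient livers, against 3.41, 20.05 and 25.4 CPM in wild-type livers (log2 fold change -2.79 ± 0.66, SE; edgeR adjusted p = 0.0248). Wild type replicate 1 was again the low library of its group, and with the covariate for Y-linked transcripts the edgeR adjusted p of Nrg4 was 0.108. Mst1, which encodes the HGF-like ligand of the receptor RON, fell (log2 fold change -0.63, edgeR adjusted p = 0.0363). Btc was called in all alternatives. Nrg1 was called without any 1 library, but those calls carry the same limit of the filter and are no support either. Nrg1 was not called in limma-voom (adjusted p = 0.0609) or with the replicate block (edgeR adjusted p = 0.0643). Among the fits without 1 library, Nrg4 and Mst1 kept their calls only without wild type replicate 1. In the others the edgeR adjusted p was 0.063 to 0.101 for Nrg4 and 0.0601 to 0.129 for Mst1. Erbb4 and the ligands Epgn, Nrg2 and Nrg3 were too low to test.

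Of 11 genes that release or activate the ligands, or inhibit those proteases, 4 were called higher and 1 lower, against 13.3% and 10.5% of all tested genes, and their median log2 fold change was 0.55, against 0.01. The list had 2 calls without Mettl3-deficient replicate 1 or wild type replicate 2 or 3, 3 without Mettl3-deficient replicate 2 and 7 without wild type replicate 1. Rhbdf1, an inactive rhomboid that brings the sheddase ADAM17 to the cell surface, averaged 23.0 ± 1.77 CPM in Mettl3-deficient livers and 8.90 ± 0.971 CPM in wild-type livers (SD, n = 3; edgeR adjusted p = 0.00278), and Adam17 averaged 36.6 ± 2.30 CPM and 24.9 ± 1.33 CPM in those groups (edgeR adjusted p = 0.0244). St14, which encodes the membrane protease matriptase, an activator of HGF, averaged 9.62 ± 3.28 CPM in Mettl3-deficient livers and 1.54 ± 0.466 CPM in wild-type livers (edgeR adjusted p = 0.00404). The more abundant HGF-activating protease genes of the list, Hpn and Hgfac, went the other way without a call. Hpn averaged 307 and 594 CPM in those groups (edgeR adjusted p = 0.0581), and Hgfac 203 and 329 CPM (edgeR adjusted p = 0.105). Spint2, an inhibitor of such proteases, rose (log2 fold change 0.81, edgeR adjusted p = 0.0109), and Timp3, an inhibitor of ADAM17, fell (-0.75, edgeR adjusted p = 0.0258). St14 and Rhbdf1 were called without any 1 library. Spint2 lost its call without Mettl3-deficient replicate 1 (edgeR adjusted p = 0.0502) or wild type replicate 2 or 3 (0.0599 and 0.0526), and Adam17 and Timp3 without Mettl3-deficient replicate 1 or 2 or wild type replicate 2 or 3 (0.0609 to 0.0951 for Adam17 and 0.0673 to 0.0966 for Timp3).

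**Figure D4:**
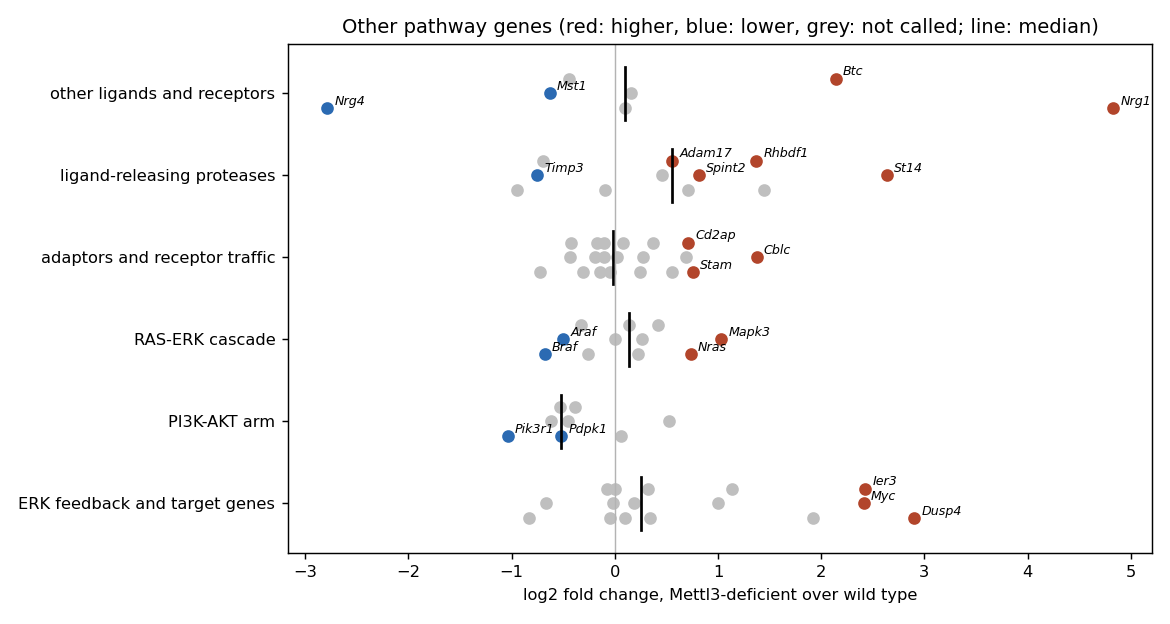
Log2 fold changes, Mettl3-deficient over wild type (horizontal axis), of the tested genes in 6 further pathway lists (rows; 1 gene of the PI3K-AKT row is not drawn); red points are called higher, blue lower and grey not called, and the black line is the list's median. Called genes go both ways in the ligand, protease and RAS-ERK rows, only down in the PI3K-AKT row and only up in the adaptor and ERK target rows.

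Of 20 adaptor and receptor traffic genes, 3 were called higher, and the median log2 fold change was -0.01. With 13.3% of all tested genes called higher, that count is near the background and no result about the list. The genes were Cblc, a ubiquitin ligase of the CBL family that acts on activated EGF receptor, with 31.2, 30.9 and 47.0 CPM in Mettl3-deficient livers and 13.6, 12.3 and 16.2 CPM in wild-type livers (edgeR adjusted p = 0.00636), the endosomal sorting gene Stam (log2 fold change 0.76, edgeR adjusted p = 0.0119) and the adaptor Cd2ap (0.71, edgeR adjusted p = 0.0407). Cblc was called without any 1 library, Stam not without Mettl3-deficient replicate 1 or wild type replicate 2 or 3 (edgeR adjusted p of 0.0534, 0.0509 and 0.0549), and Cd2ap not without Mettl3-deficient replicate 1 or 2 or wild type replicate 2 or 3 (0.096, 0.0969, 0.128 and 0.133). With library size alone 7 of the 20 rose.

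Of 11 genes of the RAS-ERK cascade, 2 were called higher and 2 lower, against 13.3% and 10.5% of all tested genes, which is too near the background to be a result about the list. Mapk3, which encodes ERK1, had 65.8, 67.6 and 67.9 CPM in Mettl3-deficient livers, against 32.7, 31.2 and 34.6 CPM in wild-type livers (log2 fold change 1.03 ± 0.13, SE; edgeR adjusted p = 0.00331), and its call held without any 1 library. Nras rose (log2 fold change 0.74, edgeR adjusted p = 0.0207), while the RAF kinase genes Braf and Araf fell (-0.68 and -0.50, edgeR adjusted p = 0.0199 and 0.038). These 3 lost their calls without Mettl3-deficient replicate 1 or 2 or wild type replicate 2 or 3 (edgeR adjusted p of 0.0597 to 0.0822 for Nras, 0.0575 to 0.0865 for Braf and 0.0988 to 0.138 for Araf), and library size alone gave Braf -0.21 and Araf -0.03. In the PI3K-AKT list 3 of 9 were called lower, against 10.5% of all tested genes, and edgeR called 0 of the 9 without Mettl3-deficient replicate 1 or 2 or wild type replicate 2 or 3, with 5, 4, 3 and 6 at an unadjusted p under 0.05. Among the 3 were Pik3r1, the regulatory subunit p85-alpha (log2 fold change -1.04, edgeR adjusted p = 0.0303), and Pdpk1, the kinase upstream of AKT (-0.52, edgeR adjusted p = 0.0339). Among the fits without 1 library, Pik3r1 kept its call only without wild type replicate 1 (edgeR adjusted p of 0.0548 to 0.0961 in the others) and Pdpk1 only without Mettl3-deficient replicate 3 (0.0517 to 0.114 in the others). With library size alone the list had 1 call, Pik3cb as higher (1.02, edgeR adjusted p = 0.0159).

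Of 16 tested ERK feedback and target genes, 3 were called higher, against 13.3% of all tested genes, with a median log2 fold change of 0.25, and the count is near enough to the background to be no result about the list. Ier3, an immediate early gene, had 6.38, 5.31 and 2.86 CPM in Mettl3-deficient livers, against 0.497, 1.17 and 1.03 CPM in wild-type livers (log2 fold change 2.43 ± 0.45, SE; edgeR adjusted p = 0.0105). The ERK phosphatase gene Dusp4 had 10.2, 15.3 and 3.42 CPM in Mettl3-deficient livers, against 2.34, 0.566 and 0.961 CPM in wild-type livers (2.90 ± 0.68, SE; edgeR adjusted p = 0.0222). Myc had 27.7, 48.2 and 19.7 CPM in Mettl3-deficient livers, against 1.74, 7.43 and 8.80 CPM in wild-type livers (2.41 ± 0.60, SE; edgeR adjusted p = 0.0303). Ier3 was called without any 1 library, and Dusp4 and Myc lost their calls without Mettl3-deficient replicate 1 or 2 or wild type replicate 2 or 3 (edgeR adjusted p of 0.0651 to 0.0798 for Dusp4 and 0.0572 to 0.0934 for Myc).

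The genes whose centred log2 CPM profile over the 6 libraries lay nearest to that of Egfr, out of 9725 genes with a mean of at least 5 CPM, were Serpina11, Ppp1r3b and Serpina1a, at Euclidean distances of 0.444, 0.532 and 0.533. Their log2 fold changes were -2.44, -2.76 and -2.14. Likeness in fold change, here and for Met and Hgf below, follows from the choice by profile. Serpina1a and the hepatocyte marker Serpina1c belong to a cluster of near-identical copies, so their counts are uncertain. Nearest to Met were Rnf43, Stk25 and Inpp5b, at 0.0592, 0.0879 and 0.118, with log2 fold changes of -0.48, -0.50 and -0.51. Among the nearest to Hgf were Casp6 and Smad3, at 0.143 and 0.238, and neither was called (edgeR adjusted p of 0.409 and 0.413).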

How the data were processed

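The files hold whole-number counts for each Entrez gene, deposited by the authors with no normalisation. HISAT2, featureCounts and mm10 are named in the submitters' processing notes; the sources used here give no versions, annotation, pooling or strand setting. Libraries were made with a directional kit after Ribo-Zero Gold depletion, per the labels' protocols. Without the strand setting, reads of overlapping genes cannot be assigned with certainty: GENCODE M21 exons of Lrig1 share 144 bases with Slc25a26, those of Tgfa 118 with Gm43917 and those of Erbb2 9 with Mien1, each on the opposite strand, and those of Hgf 484 with Gm43489 on the same strand.

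Symbols and gene coordinates came from RefSeq on GRCm38.p6 (the build of mm10, with 25275 of 27179 identifiers matched) and exon lengths from GENCODE M21 on GRCm38. Promoter windows came from RefSeq and were matched to 8 of the 10 genes, with Hbegf, on chromosome 18, left out of the match. Counts were tested with edgeR 4.0.16 in R 4.3.3 (robust quasi-likelihood F test, two-sided, TMM factors, intercept and group, filterByExpr with a minimum count of 10 and total of 15), with Benjamini-Hochberg adjustment over all 14380 tested genes and calls at 0.05. Levels are TMM-normalised CPM; profiles used log2(CPM + 0.5). The SE of a log2 fold change was its size over the square root of F. Groups followed the title labels. The code was tested on simulated data.

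The genes and lists were chosen with earlier results of these data known. All 10 genes, Mettl3, up to 4 called genes by p per further list and 3 nearest profiles for Egfr, Met and Hgf are named by rule, apart from 2 genes not reported here. Timp3, Hpn, Hgfac, Pik3cb, Rgs5, Sox9 and the genes named as not tested were named after their values were seen. Alternatives were RLE and upper-quartile factors, library size alone, DESeq2 1.42.0, limma-voom (limma 3.58.1), no filter, a filter of 1 CPM in 3 libraries, the replicate number as a block, a covariate for libraries with over 100 Y-linked counts, leaving out the 20 genes with most counts, and leaving out each library. Areg was fitted only with no filter or without some libraries, since the main filter left it out.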

Additional observations from a re-analysis of the deposited data

Results flagged for a closer look

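For Erbb2 and Hgf, every Mettl3-deficient library moved one way within the libraries with Y-linked transcripts and the other way within those without. The log2 ratio of mean CPM, Mettl3-deficient over wild type, was -0.28 with Y-linked transcripts and 0.61 without for Erbb2, and -0.26 and 1.05 for Hgf. Each set holds 1 library of a group, the difference between the sets was not tested, and both genes were low, Erbb2 between 1.70 and 3.19 CPM and Hgf between 3.01 and 7.30 CPM over the 6 libraries.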

How the results depend on the processing

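Egfr was called in all 16 alternatives. Without 1 library the log2 fold change ran from -0.28 to 0.23 for Erbb2 and from -0.066 to 0.13 for Lrig1, neither called. Over the alternatives for the 9 tested genes, 116 values kept direction and side of the threshold, 14 lost a call, 11 gained one and 3 turned direction. The cause of each change was not tested, except that fits without a library have fewer samples.

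All genes called numbered 3420; library size alone gave 5405, of which 89.0% were higher against 55.7% with TMM. Of the 10 genes, 3 were called; library size alone and DESeq2 each gave 5. Other ligands and receptors numbered 4, with 2 in limma-voom, 2 with no filter and 1 with the replicate block. Ligand-releasing proteases numbered 5, with 8 in DESeq2. Adaptors numbered 3 and were 7 with library size alone. The PI3K-AKT list numbered 3, with 1 each for library size alone, no filter and the replicate block. ERK targets numbered 3, with 5 each for library size alone and DESeq2. Without 1 library, counts ran from 1382 to 3514 for all genes, 1 to 5 for the 10 genes, 2 to 4 for other ligands, 2 to 7 for proteases, 1 to 3 for adaptors, 1 to 4 for RAS-ERK, 0 to 2 for PI3K-AKT and 1 to 3 for ERK targets. The edgeR fits with 0 PI3K-AKT calls, those without Mettl3-deficient replicates 1 and 2 and wild type replicates 2 and 3, held 5, 4, 3 and 6 genes of that list at an unadjusted p under 0.05.

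Deviations of same-numbered replicates had correlations of 0.082, -0.013 and 0.044, and those of differently numbered replicates ran from -0.109 to 0.028. With 3 libraries per group these values cannot decide whether the numbers pair the samples. With the replicate block 2683 genes and 2 of the 10 were called, Egfr and Hbegf, and Met was not (edgeR adjusted p = 0.0755). Low counts limit Areg, Hbegf and Erbb2, and with 3 libraries per group a missed call does not show that levels were alike.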

Other observations

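The letters GGACT, the core of the sequence most often methylated by the METTL3 complex, were counted on the sense strand of the longest coding transcript of each gene in GENCODE M21. No m6A was measured here. Over 13279 tested genes the median was 1.06 matches per kb, with quartiles of 0.649 and 1.54. Hbegf, the 1 gene of the set called higher, had 2.53 matches per kb, with 95.2% of those genes at or below it. Areg, which was not tested for a difference, had 2.47 matches per kb (3 in 1215 bases), with 94.8% at or below it. Lrig1 had 2.02 matches per kb, the next highest density of the 10 genes, and a log2 fold change of 0.02. Tgfa, with a log2 fold change of 0.72 and not called, had 0.8836 matches per kb, below the median. Erbb3, with a log2 fold change of 0.42 and not called, had 1.496 matches per kb, above the median. Egfr had 12 matches in 10208 bases (1.18 per kb) and Met 8 in 6809 bases (1.18 per kb), near the median, while Hgf and Errfi1 had 1 match each (0.288 and 0.329 per kb). Egfr and Met, the 2 genes called lower, thus had like densities, and Errfi1, lower but not called, had a lower density. No test was made of match density.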
